A study of Mus musculus with 31 samples.

Results

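Kupffer cells are the resident macrophages of the liver. A set of genes of these cells and of macrophages in general were followed in the livers of 31 mice treated with antisense oligonucleotides (ASOs) or with DPBS. They are *Clec4f*, *Vsig4*, *Marco*, *Cd5l*, *Adgre1*, *Cd68*, *C1qa*, *C1qb*, *C1qc* and *Csf1r*, that is 10 of the 31172 gene symbols measured, and they were chosen by name as possible signs of a macrophage response to oligonucleotide. Each of the 10 symbols was found in the data of every mouse. All mice were *hFIX-R29X* mice, which lack mouse factor IX and carry a human factor IX minigene with a nonsense mutation, driven by the human transthyretin promoter, which is active in hepatocytes. They were 8 to 14 weeks old and received 6 doses, 5 days apart according to the protocol (the dose entry of the labels reads weekly), and livers were taken 48 hours after the last dose. The 11 DPBS-treated mice (6 female, 5 male) stood beside 4 groups on ASO. Control-GalNAc-ASO was used at 15 mg/kg in 4 mice (2 of each sex) and at 20 mg/kg in 6 mice (3 of each sex). *Upf3b*-GalNAc-ASO was used at 10 mg/kg in 5 mice and at 20 mg/kg in another 5, each time with 2 females and 3 males. GalNAc is a sugar that binds the asialoglycoprotein receptor of hepatocytes, which directs the conjugates to these cells. The labels do not tie the DPBS-treated mice to one of the dosing experiments.

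Macrophages of the liver sinusoids take up particles, dying cells and free oligonucleotides from the blood. A nucleic acid that reaches their endosomes can meet Toll-like receptors, and activated macrophages release chemokines and cytokines that recruit monocytes. *Clec4f* and *Vsig4* encode receptors typical of Kupffer cells, and VSIG4 binds complement C3b. *Marco* encodes a scavenger receptor, a class of receptors that binds polyanions, *Cd5l* a secreted protein of macrophages, *Adgre1* the F4/80 antigen and *Cd68* a glycoprotein of lysosomes. *C1qa*, *C1qb* and *C1qc* encode the 3 chains of complement C1q, and *Csf1r* the receptor of the growth factors CSF1 and IL34, on which macrophages depend for survival.

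The 2 unconjugated oligonucleotide sequences listed for the control ASO and the *Upf3b* ASO are shown because the treated groups differ in which of these ASOs they received in conjugated form. Pairs of C and G, the kind of site that TLR9 reads in DNA, are in capitals; whether the conjugates keep exactly these bases is not restated in the sources used here.
Control: ggccaataCGcCGtca
Upf3b: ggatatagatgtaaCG
Both have 16 bases. The control ASO has 2 CG pairs, starting at bases 9 and 12 from its 5′ end, and the *Upf3b* ASO has 1, starting at base 15. The paper describes its ASOs as having wings with constrained ethyl modifications around a central gap of 10 deoxy bases. Both control pairs lie within that gap. The *Upf3b* pair lies in a modified wing, outside the deoxy part, so the pairs are not alike as DNA sites. Of the 16 bases, 10 are G or C in the control ASO and 6 in the *Upf3b* ASO. The dose of both ASOs was the same only in the groups at 20 mg/kg.

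Expression was given in TPM, a read count scaled to the same total in every mouse, and the values were not divided by transcript length, so that levels of different genes below are on this read scale. Between 1014100 and 7349092 reads per mouse lay behind the values (median 3604847), and 3 reads were worth 0.406 to 2.94 TPM (counting error only). Of the 310 values of the 10 genes, 11 were 0 and 24 rested on fewer than 3 reads. There were 4 mice with under 1500000 reads, namely *Upf3b*-GalNAc-ASO mouse 3 at 10 mg/kg, DPBS mice 6 and 7, and Control-GalNAc-ASO mouse 1 at 20 mg/kg, and results that move without them are given both ways. *Upf3b* itself was between 33.8 and 136 TPM with DPBS, 27.1 and 78.7 TPM with Control-GalNAc-ASO at 15 mg/kg, 85.3 and 135 TPM with Control-GalNAc-ASO at 20 mg/kg, 3.95 and 53.7 TPM with *Upf3b*-GalNAc-ASO at 10 mg/kg, and 2.57 and 16.7 TPM with *Upf3b*-GalNAc-ASO at 20 mg/kg.

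The macrophage genes were a small part of the liver RNA, and *C1qa* and *Cd5l* stood above the rest. Their summed level was between 229 and 873 TPM per mouse, and its median was 372 TPM, while 7 hepatocyte markers together were between 21046 and 69247 TPM. In a bulk liver sample, fewer macrophages and less of an mRNA per macrophage cannot be told apart. The medians over 31 mice, on the scale of reads, were 191 TPM for *C1qa*, 76.7 for *Cd5l*, 18.2 for *Csf1r*, 16.9 for *Clec4f*, 14.7 for *Marco*, 9.91 for *C1qc*, 8.98 for *C1qb*, 6.56 for *Vsig4*, 5.24 for *Cd68* and 3.87 for *Adgre1*. *C1qa* was above *Cd5l*, and *Cd5l* above *Csf1r*, in 31 of 31 mice. The neighbours below them were not separated in this way, since *Csf1r* was above *Clec4f* in 17 mice, *Clec4f* above *Marco* in 14, *Marco* above *C1qc* in 20, *C1qc* above *C1qb* in 14, *C1qb* above *Vsig4* in 21, *Vsig4* above *Cd68* in 17 and *Cd68* above *Adgre1* in 22.

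*Adgre1*, whose F4/80 product is a usual marker of macrophages on tissue sections, was the gene with the least signal. It was listed at 0 in 7 of 31 mice and rested on fewer than 3 reads in 12, and its highest value, 21.1 TPM, was in a DPBS-treated mouse. *Clec4f*, which in the mouse marks Kupffer cells, was found in 30 of 31 mice, at a mean of 18.3 ± 8.61 TPM (SD, n = 11) with DPBS. The mouse at 0 was *Upf3b*-GalNAc-ASO mouse 3 at 10 mg/kg, the mouse with the fewest reads.

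**Figure D1:**
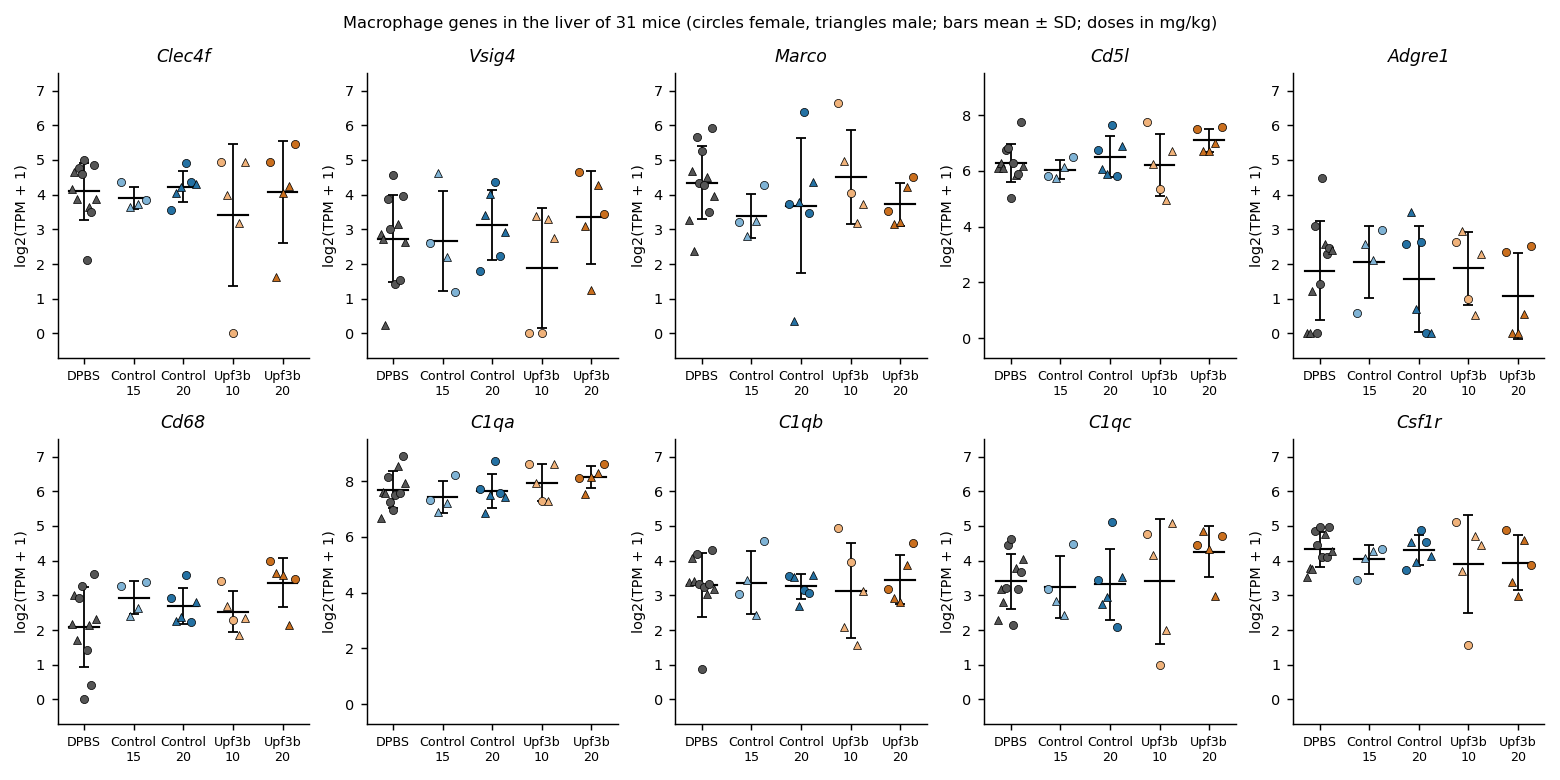
Level of each of the 10 macrophage genes as log2(TPM + 1) in every mouse, by group, with circles for female and triangles for male mice and bars for the mean ± SD. The groups overlap for every gene, *C1qa* is between 101 and 478 TPM, and *Adgre1* is at 0 in 7 mice.

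Transcripts of the 3 C1q chains were read at very different levels, although the chains enter the protein in equal numbers. Summed over 31 mice, *C1qa* had 28328 reads, *C1qb* 1207 and *C1qc* 1605, so that *C1qa* took 91.0% of the reads of the 3 genes (95% exact binomial interval 90.6% to 91.3%, counting error only). It was the highest of the 3 in 31 of 31 mice, with a share between 83.4% and 96.9%, and had 23.5 times the reads of *C1qb* and 17.6 times those of *C1qc*. *C1qb* was above *C1qc* in 16 of 31 mice, so these were not ordered. The share of *C1qa* was 92.1% over the DPBS-treated mice, 89.9% and 90.8% over the Control-GalNAc-ASO mice at 15 and 20 mg/kg, and 91.0% and 89.5% over the *Upf3b*-GalNAc-ASO mice at 10 and 20 mg/kg. In GRCm38 with GENCODE M21, the 3 genes lie side by side on the minus strand of chromosome 4, *C1qb* from 136880129 to 136886187, *C1qc* from 136889804 to 136893065 and *C1qa* from 136895917 to 136898803, each with 3 exons and none overlapping another gene. The libraries are described in the labels as made from the 3′ ends of transcripts, and the polyadenylation signal AATAAA was in the last 40 bases of the longest coding transcript of all 3 C1q genes, of 9 of the 10 macrophage genes, and of 57.3% of 21877 coding genes.

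**Figure D2:**
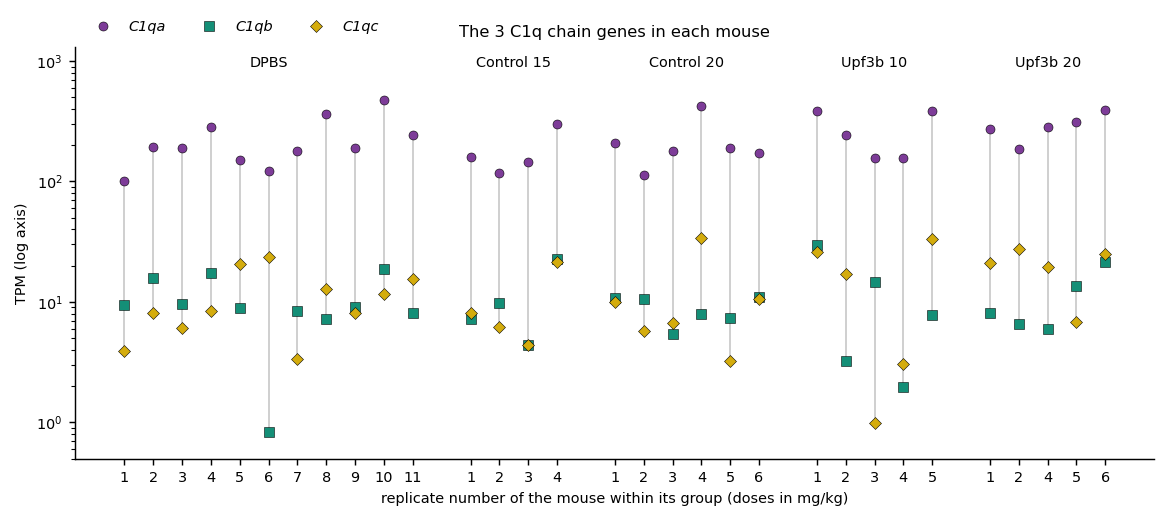
TPM of *C1qa* (circles), *C1qb* (squares) and *C1qc* (diamonds) in each mouse on a log axis, with a grey line from the lowest to *C1qa*. *C1qa* is the highest in all 31 mice and takes between 83.4% and 96.9% of the reads of the 3 genes.

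The first question was whether *Upf3b*-GalNAc-ASO moved the macrophage genes against the control oligonucleotide at 20 mg/kg, the only dose given of both. No macrophage gene passed the test. Of 9 tested (*Adgre1* was under the filter, a median of 5 TPM or more in 1 group, in every comparison), 7 were higher and 2 lower with *Upf3b*-GalNAc-ASO. Their median log2 fold change was 0.24, against −0.12 for all 9376 genes tested, of which 2.52% were called at an adjusted p under 0.05 by limma and 18.7% had an unadjusted p under 0.05. None of the 9 reached either. In none of the comparisons below did the groups of mice separate without overlap for any of the 10 genes. The share of all genes whose groups separate was not computed, so this is a description of the 10 genes only.

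*Cd5l*, which encodes the secreted macrophage protein also called AIM, had 181, 104, 103, 128 and 187 TPM in the 5 mice given *Upf3b*-GalNAc-ASO at 20 mg/kg. The 6 mice given Control-GalNAc-ASO at 20 mg/kg were between 54.8 and 201 TPM (median 85.5 TPM). Of the 6 control mice, 4 were no higher than 106 TPM and the others reached 119 and 201 TPM, so the groups overlapped. The log2 fold change was 0.64 (SE 0.31, 95% interval −0.01 to 1.29, limma adjusted p = 0.275), and the exact permutation test gave p = 0.177. *C1qa* had 275, 186, 285, 309 and 393 TPM against 114 to 425 TPM in the control mice (median 185 TPM), a log2 fold change of 0.57 (SE 0.28, limma adjusted p = 0.279). *C1qc* had 20.9, 27.6, 19.3, 6.84 and 25.0 TPM against 3.25 to 33.9 TPM (median 8.31 TPM), a log2 fold change of 0.997 (SE 0.52, 95% interval −0.09 to 2.09, limma adjusted p = 0.315). In both C1q genes control mouse 4 set the top of the range, and the other 5 control mice were between 114 and 209 TPM of *C1qa* and between 3.25 and 10.6 TPM of *C1qc*. The other 6 genes had log2 fold changes between −0.32 (*Csf1r*) and 0.73 (*Cd68*).

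At the lower doses, 10 mg/kg of *Upf3b*-GalNAc-ASO was set against 15 mg/kg of Control-GalNAc-ASO, so that dose and oligonucleotide differ together. Of 9 genes tested, 4 were higher and 5 lower, the median log2 fold change was −0.07 against −0.03 for all genes, and none was called, where 0.295% of 9166 genes were. Of the 9, *Cd68* (medians 4.12 and 6.97 TPM) entered only through the Control-GalNAc-ASO mice. *Vsig4* (medians 5.67 and 4.35 TPM) entered only through the *Upf3b*-GalNAc-ASO mice. *Marco* alone had an unadjusted p under 0.05, as did 15.8% of all genes. This scavenger receptor gene had 98.7, 30.4, 15.7, 8.03 and 12.4 TPM with *Upf3b*-GalNAc-ASO and 8.18, 5.96, 8.54 and 18.3 TPM with Control-GalNAc-ASO. The *Upf3b*-GalNAc-ASO mouse at 98.7 TPM was far above the rest. The mouse at 30.4 TPM was also above every control mouse, and the others lay within the range of the controls. The log2 fold change was 1.24 (SE 0.58, 95% interval 0.00 to 2.49, limma p = 0.0495, adjusted p = 0.316, exact permutation p = 0.175). *Vsig4* was 0 in both female mice given *Upf3b*-GalNAc-ASO at 10 mg/kg, 1 of which had the fewest reads, and was 9.45, 8.90 and 5.67 TPM in the 3 males, with a log2 fold change of −1.02 (SE 0.69, limma adjusted p = 0.482). Without *Upf3b*-GalNAc-ASO mouse 3, which had 1014100 reads, the median log2 fold change of the macrophage genes was 0.52.

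Whether the oligonucleotides moved the macrophage genes at all was asked by setting each group against DPBS; these comparisons share the 11 DPBS-treated mice. Control-GalNAc-ASO at 15 mg/kg had 2 genes higher and 7 lower of 9 (median log2 fold change −0.19, all genes 0.07), with 0% of 8971 genes called and 7.18% under an unadjusted p of 0.05. Control-GalNAc-ASO at 20 mg/kg had 5 higher and 4 lower (median 0.00, all genes 0.15), with 0% of 9140 called and 9.9% under an unadjusted p of 0.05. No macrophage gene was under 0.05 by either measure in these comparisons, and the lowest adjusted p by limma were 0.709 and 0.705. *Clec4f*, for example, was 18.3 ± 8.61 TPM (SD, n = 11) with DPBS, 14.2 ± 3.60 TPM (SD, n = 4) at 15 mg/kg and 18.5 ± 5.99 TPM (SD, n = 6) at 20 mg/kg. *Csf1r*, the CSF1 receptor, was 20.2 ± 7.31, 15.9 ± 4.24 and 19.5 ± 6.04 TPM (SD) in the same groups, and at 20 mg/kg the 95% interval of its log2 fold change was −0.61 to 0.61.

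With *Upf3b*-GalNAc-ASO at 10 mg/kg, 2 of 8 genes tested were higher and 6 lower than with DPBS (median log2 fold change −0.05, all genes 0.03). The median was −0.43 to 0.33 with single mice left out, 0.33 being without mouse 3, and −0.17 to 0.26 under the other settings, so that its sign was not fixed. None had an unadjusted p under 0.05, where 8.27% of 9032 genes did and 0.376% were called. *Cd68* was not tested here, with medians of 4.12 and 3.53 TPM. The intervals of the 8 genes were wide, that of *Clec4f* running from −2.04 to 0.56 and that of *C1qa*, the best read of the 10, from −0.44 to 0.95.

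With *Upf3b*-GalNAc-ASO at 20 mg/kg, 7 of 9 genes were higher and 2 lower than with DPBS, at a median log2 fold change of 0.47 against 0.05 for all genes. No macrophage gene was called, where 1.13% of 9078 genes were. *Cd5l* and *Cd68* had an unadjusted p under 0.05, as did 11.9% of all genes. The 11 DPBS-treated mice had 31.8 to 217 TPM of *Cd5l* with a median of 71.8 TPM, and the 5 *Upf3b*-GalNAc-ASO mice 103 to 187 TPM. Every treated mouse was above the median of the DPBS-treated mice, and 1 DPBS-treated mouse was above every treated mouse. The log2 fold change was 0.88 (SE 0.31, 95% interval 0.24 to 1.52, limma adjusted p = 0.211, exact permutation p = 0.0288).

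*Cd68*, the lysosomal glycoprotein gene, had 14.9, 11.5, 11.1, 3.42 and 10.1 TPM with *Upf3b*-GalNAc-ASO at 20 mg/kg and 0 to 11.3 TPM with DPBS (median 3.53 TPM). Of the 5 treated mice, 2 were above every DPBS-treated mouse, 2 were between 10.1 and 11.1 TPM, and the other was just below the median of the DPBS-treated mice. The log2 fold change was 1.27 (SE 0.59, 95% interval 0.05 to 2.49, limma adjusted p = 0.398, exact permutation p = 0.0261). With its median under 5 TPM in DPBS-treated mice, *Cd68* entered this comparison only through the treated group. It was 6.92 ± 2.54 TPM (SD, n = 4) and 5.87 ± 2.82 TPM (SD, n = 6) with Control-GalNAc-ASO at 15 and 20 mg/kg, and 5.17 ± 2.75 TPM (SD, n = 5) with *Upf3b*-GalNAc-ASO at 10 mg/kg. *C1qc* had a log2 fold change of 0.92 (SE 0.45, 95% interval −0.02 to 1.85, limma adjusted p = 0.428), and *Clec4f* of 0.07 (SE 0.51, 95% interval −0.98 to 1.12).

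Over all 20 ASO-treated mice against the 11 DPBS-treated mice, 6 of 9 genes were higher and 3 lower (median log2 fold change 0.04, all genes 0.05), and none was called, where 0.0112% of 8904 genes (1 gene) were. *Cd68* was the gene with an unadjusted p under 0.05, as were 6.85% of all genes, at a log2 fold change of 0.80 (SE 0.35, 95% interval 0.10 to 1.50, limma adjusted p = 0.653, permutation p = 0.0247 with 100000 resamples). Here too, as in each comparison with DPBS in which *Cd68* was tested, its median in DPBS-treated mice was under 5 TPM and it entered only through the treated mice, where it was higher, so these p-values are no independent test. *Cd5l* was 0.25 (SE 0.26), *C1qa* 0.13 (SE 0.22), *C1qb* 0.04 (SE 0.33), *Csf1r* −0.24 (SE 0.28) and *Marco* −0.40 (SE 0.39). The 95% interval of *C1qa* ran from −0.31 to 0.57 and that of *Clec4f* from −0.96 to 0.64.

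**Figure D3:**
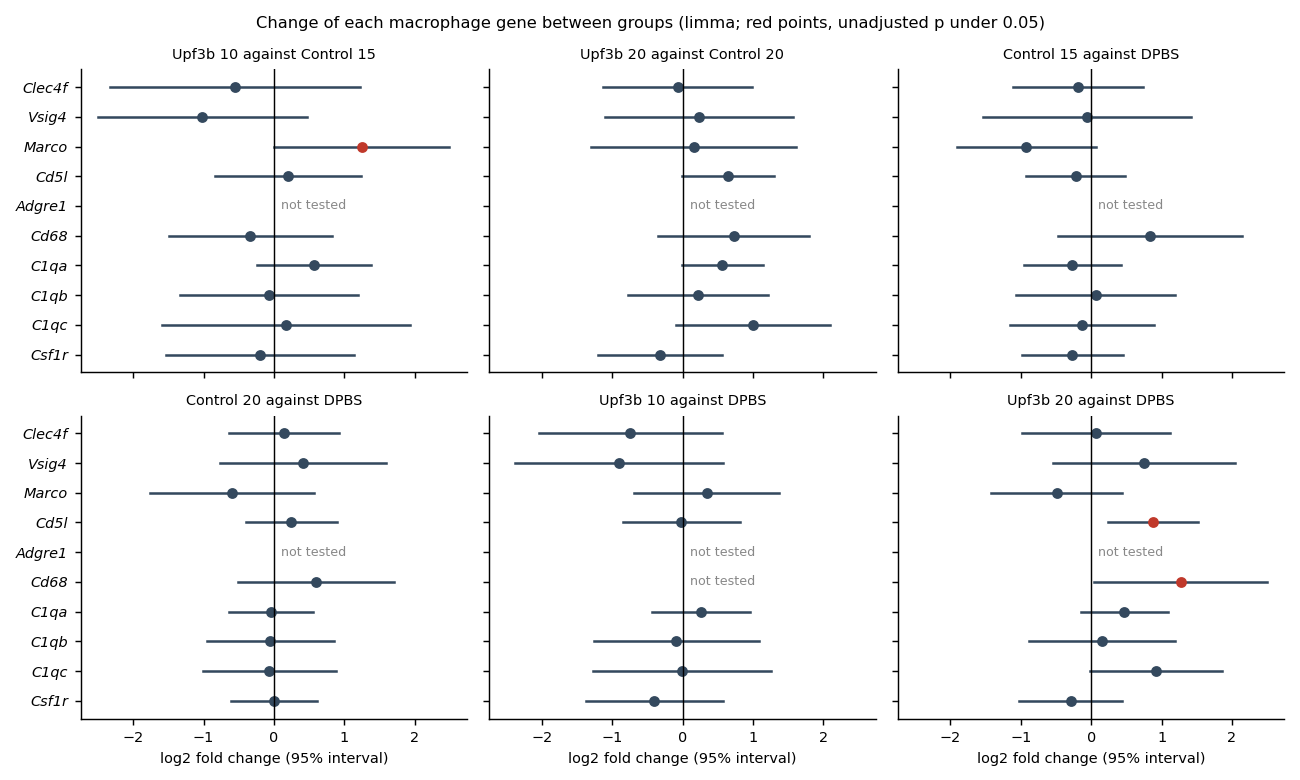
Log2 fold change (points) and 95% interval (lines) of each macrophage gene from limma in 6 comparisons between groups, with points in red where the unadjusted p was under 0.05. These are *Marco* with *Upf3b*-GalNAc-ASO at 10 mg/kg against Control-GalNAc-ASO at 15 mg/kg, and *Cd5l* and *Cd68* with *Upf3b*-GalNAc-ASO at 20 mg/kg against DPBS, and none had an adjusted p under 0.211.

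Between doses of the same oligonucleotide no macrophage gene was called either. For Control-GalNAc-ASO at 20 against 15 mg/kg, 7 of 9 were higher (median log2 fold change 0.27, all genes 0.06, 0% of 9222 genes called, 9.62% under an unadjusted p of 0.05). For *Upf3b*-GalNAc-ASO at 20 against 10 mg/kg, 8 of 9 were higher (median 0.66, all genes 0.00, 0% of 9187 called, 5.05% under an unadjusted p of 0.05), but the median was 0.15 without the mice under 1500000 reads, that is without *Upf3b*-GalNAc-ASO mouse 3 at 10 mg/kg. It ran from 0.15 to 1.01 with single mice left out, was 0.26 without mouse 6 at 20 mg/kg, and under the other settings ran from −0.02 (array quality weights) to 0.98 (female mice only). In the *Upf3b*-GalNAc-ASO comparison *Cd68* (medians 11.1 and 4.12 TPM) entered only through the mice at 20 mg/kg, where it was higher. In the Control-GalNAc-ASO comparison the same held for *Vsig4* (medians 8.09 and 4.35 TPM). The counts and medians include these genes and are no independent test. None of the 9 had an unadjusted p under 0.05 in either comparison, and the lowest adjusted p by limma were 0.682 and 0.891. The difference between the 2 effects of *Upf3b*-GalNAc-ASO over Control-GalNAc-ASO, at the higher and at the lower doses, was also tested. It was called for 0 of 9 macrophage genes and 0% of 9797 genes, where 8.16% had an unadjusted p under 0.05 and none of the 9 did. *Cd68* had the largest rise of the effect, 1.08 on the log2 scale (SE 0.70, limma adjusted p = 0.693), and *Marco* the largest fall, −1.10 (SE 0.96, limma adjusted p = 0.767).

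The sexes differed in no macrophage gene by an adjusted p under 0.05. Among DPBS-treated mice, 7 of 8 genes tested were lower in the 5 males than in the 6 females (median log2 fold change −0.31, all genes 0.03), and none was called, where 1.41% of 8998 genes were. *Marco* had an unadjusted p under 0.05, as did 9.86% of all genes, at −1.07 (SE 0.51, 95% interval −2.13 to −0.01, limma adjusted p = 0.502, exact permutation p = 0.104). Over all 31 mice, with group as a covariate, 7 of 8 were again lower in males and none was called, where 2.73% of all genes were and 11% had an unadjusted p under 0.05. *Marco* was between 8.18 and 98.7 TPM in the 15 females (median 18.6 TPM) and between 0.271 and 30.4 TPM in the 16 males (median 10.5 TPM). Its log2 fold change was −1.10 (SE 0.37, 95% interval −1.85 to −0.36, limma p = 0.00488, adjusted p = 0.124). The fit over all mice includes the DPBS-treated mice, so these results are not independent. *Cd5l* was 115 ± 66.8 TPM (SD, n = 15) in females and 78.1 ± 26.3 TPM (SD, n = 16) in males, with a log2 fold change of −0.43 (SE 0.23, limma adjusted p = 0.527). The 6 mice with the highest mean of the standardised macrophage genes were all female and came from 4 of the 5 groups, a count made after the values were seen.

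From mouse to mouse, most of the macrophage genes were positively correlated with each other. Of their 45 pairs, 41 had a positive Pearson correlation of log2(TPM + 1) over the 31 mice, and 8 (17.8%) were above 0.5. Among all pairs of the 8503 genes whose median reached 5 TPM, 53.2% were positive and 3.01% above 0.5. The median r was 0.32 (0.02 over all pairs), it was 0.36 after group and sex were taken out, and 0.31 without the 4 mice under 1500000 reads. The pairs share mice and libraries, and the share of a pair that moves with depth was not tested; the mean of the standardised genes had r = 0.37 with log2 reads.

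Of the 45 pairs, 15 had a permutation p of Pearson's r under 0.05 after Benjamini-Hochberg adjustment over the 45, and 11 of them also one of Spearman's rho. Without the 4 mice under 1500000 reads, r moved both ways among these pairs. It fell from 0.53 to 0.22 for *Clec4f* and *C1qc*, from 0.44 to 0.12 for *Clec4f* and *Vsig4*, and from 0.47 to 0.24 for *Vsig4* and *Csf1r*. It rose from 0.60 to 0.70 for *Marco* and *C1qa*. *Cd5l* and *C1qa* had r = 0.71 and rho = 0.65 (adjusted permutation p = 0.00045 and 0.00292), and r was 0.63 without the 2 mice farthest from the median. *Cd5l* and *Cd68* had r = 0.70 and rho = 0.67 (adjusted permutation p = 0.00045 and 0.00225), and r = 0.68 without 2 such mice. These links joined genes of different position and function, a secreted protein, a complement chain and a lysosomal protein. *Marco* and *C1qa* had r = 0.60 and rho = 0.53 (adjusted permutation p = 0.00375 and 0.0180, r = 0.51 without 2 mice). *Clec4f* and *Csf1r* had r = 0.67 and rho = 0.48 (adjusted permutation p = 0.00427 and 0.0297), but r fell to 0.28 without 2 mice and was 0.37 without the 4 mice under 1500000 reads, so that this relation rested on those mice.

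Over all 31 mice, the neighbouring C1q genes were not all linked. *C1qa* and *C1qc* had r = 0.57 and rho = 0.60 (adjusted permutation p = 0.00591 and 0.00513, r = 0.56 without 2 mice). *C1qa* and *C1qb* had r = 0.43 and rho = 0.30 (adjusted permutation p = 0.0480 and 0.178, r = 0.41 without 2 mice). *C1qb* and *C1qc* had r = 0.04 and rho = 0.03 (adjusted permutation p = 0.856 and 0.874, r = 0.07 without 2 mice). Without the 4 mice under 1500000 reads, r was 0.29 for *C1qb* and *C1qc*, 0.66 for *C1qa* and *C1qc* and 0.39 for *C1qa* and *C1qb*. The low reads of *C1qb* and *C1qc*, a median of 30 and 34 per mouse, limit what a correlation can show at this depth. The lowest r of the 45 was −0.32, between *Vsig4* and *C1qb* (rho = −0.18, adjusted permutation p = 0.156 and 0.460, r = −0.15 without 2 mice).

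**Figure D4:**
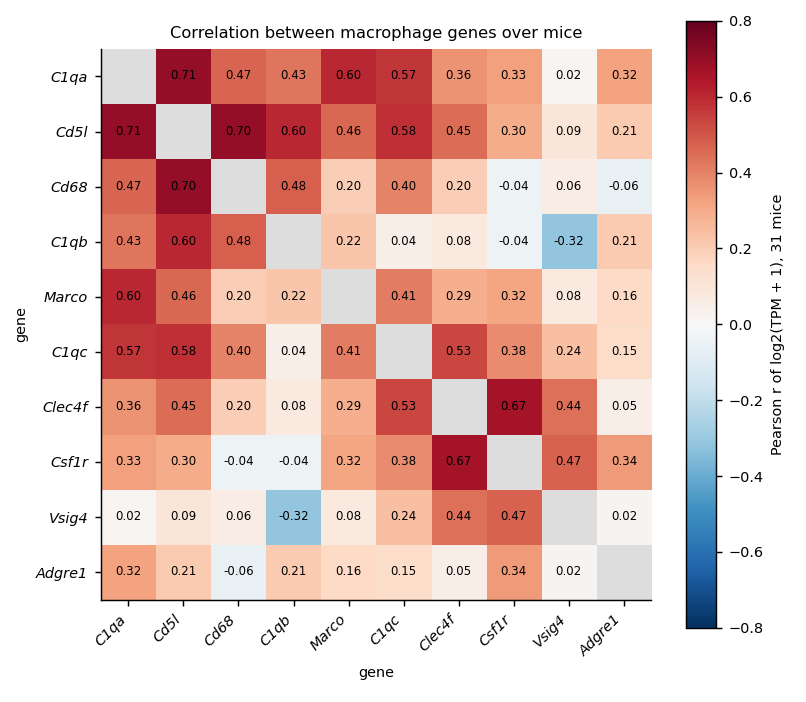
Pearson r of log2(TPM + 1) over 31 mice for each pair of the 10 macrophage genes, in colour from −0.8 to 0.8 and as a number, with the diagonal grey. The highest r are those of *Cd5l* with *C1qa*, 0.71, and of *Cd5l* with *Cd68*, 0.70, and *Vsig4* with *C1qb* has the lowest, −0.32.

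Among the 8494 other genes whose median reached 5 TPM, those most like the mean of the 9 standardised macrophage genes with that median over the 31 mice were *Clic1* (Pearson r = 0.76), *Eef2* (0.71), *Wipi2* (0.71), *Psmb10* (0.71) and *Srebf2* (0.69). They were picked for this likeness, so the values are a description. *Clic1* encodes a chloride intracellular channel protein and *Psmb10* a subunit of the immunoproteasome, while *Eef2*, the translation elongation factor, is used by every cell.

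Sequence before the start of the genes was looked at because many of the genes are correlated and PU.1, the product of *Spi1*, is a factor that macrophages need. The letters GAGGAA, the core that PU.1 binds, were searched on both strands in the 250 bases before the start in RefSeq (GRCm38.p6), where 7 of the 10 genes matched an entry. They were in 6 of the 7, all but *Clec4f*, and in 23.3% of the 32851 windows of the table. The match is a description of letters and not a binding site. The windows of *Marco*, *Cd5l* and *C1qb*, shown as examples with 1 match each on different chromosomes, are printed 5′ to 3′ on the strand of the gene with the match in capitals (TTCCTC where it lies on the opposite strand). *Marco* is the minus strand of chr1:120505025-120505274, *Cd5l* the plus strand of chr3:87357631-87357880 and *C1qb* the minus strand of chr4:136886201-136886450.
Marco: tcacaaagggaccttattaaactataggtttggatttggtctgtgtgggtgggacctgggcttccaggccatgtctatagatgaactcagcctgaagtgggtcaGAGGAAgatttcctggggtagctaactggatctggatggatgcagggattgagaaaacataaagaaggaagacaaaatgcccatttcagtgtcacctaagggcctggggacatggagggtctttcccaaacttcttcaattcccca
Cd5l: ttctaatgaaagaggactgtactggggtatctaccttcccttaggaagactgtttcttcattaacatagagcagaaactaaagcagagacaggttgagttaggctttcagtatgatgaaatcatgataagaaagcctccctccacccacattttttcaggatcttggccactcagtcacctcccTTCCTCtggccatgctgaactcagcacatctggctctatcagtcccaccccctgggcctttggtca
C1qb: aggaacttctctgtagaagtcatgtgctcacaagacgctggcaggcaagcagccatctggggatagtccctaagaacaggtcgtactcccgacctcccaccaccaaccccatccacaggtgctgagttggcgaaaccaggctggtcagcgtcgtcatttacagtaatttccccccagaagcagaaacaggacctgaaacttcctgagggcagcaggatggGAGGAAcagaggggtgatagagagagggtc
The match starts at base −146 from the start of the gene in *Marco*, −66 in *Cd5l* and −30 in *C1qb*.

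Other genes of the macrophage were read in the same fits, by lists fixed with earlier results of these data known. Of 12 other genes of resident Kupffer cells, 11 were tested between the groups at 20 mg/kg and none was called, where 2.52% of all genes were. Against DPBS at 20 mg/kg, 10 were tested. Of these, 8 reached the filter with DPBS, and the others entered only through the treated mice. With *Upf3b*-GalNAc-ASO 1 of the 10 was called higher, where 1.13% of all genes were called. This was *Id3*, a transcriptional regulator that Kupffer cells depend on, which is also expressed in other liver cells. It was between 222 and 418 TPM in the 5 treated mice and between 75.2 and 288 TPM in the 11 DPBS-treated mice (median 139 TPM). The log2 fold change was 1.16 (SE 0.27, limma adjusted p = 0.0293, and 0.0103 to 0.142 with single mice left out). Only DPBS mouse 7, 1 of those with fewer than 1500000 reads, was within the range of the treated mice, and *Id3* also reached 457 TPM with Control-GalNAc-ASO at 20 mg/kg. Between the sexes of the DPBS-treated mice 1 of 8 tested genes of this list was called, where 1.41% of all genes were. This was *C6*, which encodes a component of the complement membrane attack complex and is also made by hepatocytes. Its mean was 115 TPM in males and 6.78 TPM in females, a log2 fold change of 4.75 (SE 0.66, limma adjusted p = 0.000397, and at most 0.00237 with single mice left out). *Hmox1*, heme oxygenase 1, which breaks down heme in Kupffer cells, was 3968 TPM in *Upf3b*-GalNAc-ASO mouse 2 at 20 mg/kg and at most 304 TPM in every other mouse.

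Of 18 general macrophage and phagolysosome genes, 11 were tested at 20 mg/kg. Of these, 1 was called higher and none lower with *Upf3b*-GalNAc-ASO than with Control-GalNAc-ASO, where 2.52% of all 9376 genes were called. This was *Ctsd*, which encodes the lysosomal protease cathepsin D and is expressed by many cell types. It had 521, 448, 444, 475 and 395 TPM against 181 to 278 TPM in the control mice, without overlap, a log2 fold change of 0.96 (SE 0.23, limma adjusted p = 0.0298, and 0.0205 to 0.0876 with single mice left out). The share of all genes whose groups do not overlap was not computed. The DPBS-treated mice spanned 226 to 642 TPM, and against them the log2 fold change was 0.30 (SE 0.24, limma adjusted p = 0.674). *Ctsb*, cathepsin B, had a log2 fold change of −0.08 (SE 0.26, limma adjusted p = 0.901) between the groups at 20 mg/kg. For the whole list the median log2 fold change was −0.08, against −0.12 for all genes.

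Genes of an activated or recruited macrophage population gave few reads. Of 15 chemokine and cytokine genes, 4 were tested at 20 mg/kg and none was called, where 2.52% of all genes were. *Il18* and *Cxcl9*, the highest of the list, had log2 fold changes of −0.20 (SE 0.47, limma adjusted p = 0.861) and −0.56 (SE 0.55, limma adjusted p = 0.621). *Il6*, *Il10* and *Ccl7* were listed at 0 in all 31 mice and *Tnf* in 30, genes named here after their values were seen. Of 12 monocyte and neutrophil genes, 3 were tested and none was called, and their summed level was 9.3 to 120.9 TPM per mouse. Of 8 genes around the CSF1 receptor and macrophage transcription factors, 4 were tested and none was called. *Csf1*, the ligand of the receptor, was 6.40 ± 4.07 TPM (SD, n = 11) with DPBS and 4.20 ± 4.84 TPM (SD, n = 5) with *Upf3b*-GalNAc-ASO at 20 mg/kg, and *Spi1* was 2.13 ± 2.94 and 2.28 ± 1.06 TPM (SD) in the same groups, both also named after their values were seen.

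Of the endosomal receptors of nucleic acids, *Tlr9*, the receptor of CG pairs in DNA, was listed at 0 in all 31 mice and *Tlr7* in 29, while *Tlr3*, the receptor of double-stranded RNA, was 10.7 ± 7.58 TPM (SD, n = 31) and above 0 in 29 mice. These 3 were named after their values were seen. Of 10 genes of nucleic acid sensing, 8 were tested at 20 mg/kg, and 7 were higher and 1 lower with *Upf3b*-GalNAc-ASO than with Control-GalNAc-ASO. Their median log2 fold change was 0.59, against −0.12 for all genes, and none was called, where 2.52% of all genes were. *Nfkbia*, an inhibitor of NF-κB that is induced by it, had a log2 fold change of 0.60 (SE 0.28, limma adjusted p = 0.263) and *Myd88*, the adaptor of most Toll-like receptors, of 0.12 (SE 0.40, limma adjusted p = 0.907). Against DPBS, 7 of 8 were higher with *Upf3b*-GalNAc-ASO at 20 mg/kg, at a median of 0.80 against 0.05 for all genes. Of these 8, only 5 reached a median of 5 TPM with DPBS, and the others entered only through the treated mice. The count and the median are therefore no independent test. None was called, where 1.13% of all genes were, and *Nfkbia* was 0.07 (SE 0.30, limma adjusted p = 0.956).

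The partners of C1q in the classical complement pathway are made mainly by hepatocytes. Of 6 such genes, all were tested at 20 mg/kg, 2 were higher and 4 lower, and none was called, where 2.52% of all genes were. Their median log2 fold change was −0.03, against −0.12 for all genes. *C3* was 2811 ± 895 TPM and *C1ra* 830 ± 234 TPM (SD, n = 31). Among DPBS-treated mice, where 1.41% of all genes were called between the sexes, *C3* was lower in males. Its log2 fold change was −0.81 (SE 0.18, limma adjusted p = 0.0229, and 0.0270 to 0.0887 with single mice left out), and that of *C1qa* was −0.05 (SE 0.35, limma adjusted p = 0.966).

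Of the markers of other liver cells, 1 moved between the groups at 20 mg/kg. Of 9 markers of sinusoidal endothelial cells, all tested, *Pecam1* was called higher with *Upf3b*-GalNAc-ASO, where 2.52% of all 9376 genes were called. Its log2 fold change was 1.27 (SE 0.28, limma adjusted p = 0.0201, and 0.00603 to 0.0815 with single mice left out), and the other 8 were lower and not called. The summed level of the 9 markers, of which *Pecam1* is the largest part, was 1566 to 2448 TPM with *Upf3b*-GalNAc-ASO and 800 to 1864 TPM with Control-GalNAc-ASO. None of 7 hepatocyte markers was called in this comparison, and none of 7 T and NK cell markers reached the filter. Between the sexes of the DPBS-treated mice, where 1.41% of all genes were called, *Alb* of the hepatocyte markers was lower in males (log2 fold change −0.92, SE 0.20, limma adjusted p = 0.0208, and 0.00311 to 0.0797 with single mice left out) and *Alas2* of the red blood cell genes was higher (3.02, SE 0.35, limma adjusted p = 2.38e-05). The part of these cells in the levels of the macrophage genes was not tested.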

How the data were processed

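Liver RNA of 31 mice was sequenced from the 3′ ends of transcripts per the labels, while the methods text names a TruSeq protocol. The authors quantified transcripts with Salmon 0.7.2 on mouse cDNA of GRCm38, and TPM by gene symbol were deposited in 1 file per mouse, with replicates not pooled. The share of values that were whole multiples of 1 read, within 0.02, was between 64.3% and 80.6% per mouse, and 293 of 310 values of the macrophage genes were. The values were therefore taken as scaled reads not divided by length, and no count test was run. Of 31198 symbols, 26 that had become dates were left out. Mice were grouped by their labels, each mouse being a replicate.

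Groups were compared by moderated linear models (R 4.3.3 with limma 3.58.1, trend and robust on in eBayes) on log2(TPM + 1), with sex as covariate and only the mice compared, over genes with a median of 5 TPM or more in at least 1 of the groups. Folds are on this scale, which understates the change of low genes. P-values were adjusted over all genes tested by the Benjamini-Hochberg method and called at an adjusted p under 0.05. Permutation tests over mice were two-sided and did not include sex (Python 3.11.15, numpy 2.4.6, scipy 1.17.1, pandas 2.3.3, matplotlib 3.10.9). They were exact where a group had fewer than 10 mice. The fits were tested on simulated data. The genes and lists were chosen with earlier results of these data known. Beside the 10 genes, the text names genes of other lists that were called or among the 2 with the highest mean TPM, and the 5 genes most like the 10 in pattern. Others are said to be named after their values were seen. Alternatives were the pseudocount, the filter, scaling by size factors, array weights, sex left out or split, 1 fit over all mice, a replicate block, each mouse left out in turn and, chosen after seeing the data, the 4 mice under 1500000 reads left out. Mice given *Upf1*-GalNAc-ASO were not analysed here.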

Additional observations from a re-analysis of the deposited data

Results flagged for a closer look

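In 5 of the 40 pairs of a macrophage gene and a group of 4 to 10 mice, 1 mouse lay farther from the others in TPM than Dixon's 95% limit. Chance exceeds this limit in about 1 in 20 only for normally distributed values. The limit was applied to TPM and not to log2 values, and every flagged value was the highest of its group. The count is therefore no measure of an excess over chance. Control-GalNAc-ASO mouse 4 at 20 mg/kg accounted for 3 of the 5 pairs. This female had 82.3 TPM of *Marco*, where the other 5 of its group had 0.271 to 19.7 TPM, 424.7 TPM of *C1qa* against 114 to 209 TPM, and 33.9 TPM of *C1qc* against 3.25 to 10.6 TPM. It had the highest mean of the standardised macrophage genes of the 31 mice, and its summed monocyte and neutrophil genes, 120.9 TPM, with 55.1 TPM of *S100a9*, were also the highest of 31. Its red blood cell genes were the highest as well, at 5348 TPM in sum against 2185 TPM in the next mouse. The part of these other cells in the *Marco*, *C1qa* and *C1qc* values was not tested.

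*Upf3b*-GalNAc-ASO mouse 1 at 10 mg/kg, a female, had 98.7 TPM of *Marco* against 8.03 to 30.4 TPM in the other 4 of its group, from 304 reads. Control-GalNAc-ASO mouse 2 at 15 mg/kg, a male, had 23.8 TPM of *Vsig4* against 1.30 to 5.12 TPM in the other 3, from 100 reads.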

How the results depend on the processing

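No macrophage gene was called under any alternative in any comparison (496 counts of genes called higher or lower, all 0). The median log2 fold change of the macrophage genes for *Upf3b*-GalNAc-ASO at 10 mg/kg against Control-GalNAc-ASO at 15 mg/kg was −0.07 and ran from −0.37 to 0.52 when single mice were left out, and was 0.52 without the mice under 1500000 reads. At 20 mg/kg the median was 0.24 and was 0.80 in female mice only, with 2 and 3 mice, and 0.09 to 0.58 when single mice were left out. Against DPBS at 20 mg/kg it was 0.47 and ran from 0.31 to 0.99. This median includes *Cd68*, which entered only through the treated mice, and the median without *Cd68* was not computed.

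Replicate numbers did not pair the mice (mean correlation of the deviations of same-numbered mice −0.13 at the lower and −0.03 at the higher doses). With a replicate block, the median was −0.24 at the lower doses and 0.53 at 20 mg/kg against Control-GalNAc-ASO, and −0.25, 0.08, −0.17 and 0.35 for Control-GalNAc-ASO at 15 and 20 mg/kg and *Upf3b*-GalNAc-ASO at 10 and 20 mg/kg against DPBS. The block took the count of all genes called from 27 to 95, from 236 to 45, from 34 to 9 and from 103 to 42 in the 4 *Upf3b*-GalNAc-ASO comparisons in that order. Over every alternative those counts ran from 2 to 431, 13 to 304, 9 to 62 and 26 to 163, and for the other comparisons from 0 to 261 (Control-GalNAc-ASO at 15 mg/kg against DPBS), 0 to 9 (20 mg/kg), 0 to 35 (all ASO groups), 0 to 19 (Control-GalNAc-ASO between doses), 0 (*Upf3b*-GalNAc-ASO between doses) and 86 to 246 (sexes). The calls of *Ctsd* and *Pecam1* were lost under 12 and 7 of 22 alternatives, that of *Id3* under 12 of 27, and those of *C3* and *Alb* between the sexes under 6 and 7 of the 11 that left out a mouse (*Alb* also under 2 of 7 others), with the direction kept; the cause was not tested. Depth limits *Adgre1*, *Cd68*, *Vsig4* and *C1qb* most.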
